A study of Bos taurus with 34 samples.

Results

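The 6 microRNAs bta-miR-150, bta-miR-342, bta-miR-181a, bta-miR-181b, bta-miR-181c and bta-miR-181d were followed in the cell-free fraction of cow blood. They were taken by name, as 6 of the 800 mature bovine miRNA names in the count files, with no threshold on their values but with earlier results of these data known. Small RNA libraries came from 11 cows that had subclinical endometritis (SCE), in which the endometrium is inflamed while the cow shows no clinical disease, and from 6 healthy cows, with status assigned by cytology and biopsy of the endometrium. Each cow had been sampled at day 25 and at day 45 by the sample labels, while the design text gives 21 and 44 days after calving. The labels call the material serum and the design text calls it plasma, and neither gives age, breed or treatment. The groups were SCE at day 25 (11 libraries), healthy at day 25 (5 used of 6), SCE at day 45 (11) and healthy at day 45 (6). Healthy cow 3 has identical values in both of its files, of which the day-25 one was left out, so cow 3 entered with its day-45 library alone. All 6 names had counts in all 33 libraries used, and all 6 passed the filter on low counts in every comparison.

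MicroRNAs are short RNAs that guide a silencing complex to messenger RNAs through their 5′ end, the seed. miR-150 is abundant in mature B and T lymphocytes and restrains the transcription factor Myb in mouse lymphocytes. miR-342 is made from an intron of EVL, a gene of the actin machinery expressed in blood cells. The miR-181 family shares one seed; miR-181a is high in mouse thymocytes, where it sets the sensitivity of the T cell receptor by lowering phosphatases, and the family is also made outside the immune system. All of these roles are known from mouse and human work, and the cells that released the RNA counted here were not measured. In a cell-free sample, fewer cells of a type and less RNA from each cell cannot be told apart. In the RefSeq annotation of the assembly ARS-UCD2.0, all 8 hairpin genes of these names were found: MIR342 lies within EVL, MIR181A-1 beside MIR181B-1, MIR181A-2 beside MIR181B-2 within NR6A1, and MIR181C beside MIR181D, both overlapping NANOS3. The mature miR-181 names differ by few bases, and the sources used here do not say how reads that match several names were assigned, so the split among them is uncertain.

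Totals of counts per library ran from 1343401 to 14085868 in SCE and from 7441148 to 23399406 in healthy cows at day 25, and from 678389 to 19747294 in SCE and from 7398849 to 28872153 in healthy cows at day 45. Both libraries of SCE cow 10 were shallow. Levels are given as CPM (counts scaled to a common library total), with library sizes adjusted by the trimmed mean of M values (TMM), so that a miRNA that takes most reads of a library can pass the nominal total. miR-486, a red blood cell miRNA, held 25.4% ± 25.1 of counts in SCE and 50.3% ± 20.7 in healthy libraries at day 25, and 31.3% ± 17.1 in SCE and 46.2% ± 21.0 in healthy libraries at day 45 (mean ± SD over libraries). The log2 ratio miR-451/miR-23a, in common use to gauge red blood cell RNA in plasma, was 1.92 ± 1.80 in SCE and 2.71 ± 2.34 in healthy libraries at day 25, and 2.01 ± 1.60 in SCE and 2.98 ± 1.51 in healthy libraries at day 45. miR-223, taken here as the marker of neutrophils, averaged 1329 ± 599 in SCE and 1214 ± 1005 CPM in healthy libraries at day 25, and 1654 ± 787 in SCE and 990 ± 565 CPM in healthy libraries at day 45. miR-122, taken here as the marker of liver, averaged 9.12 ± 11.7 in SCE and 14.7 ± 13.1 CPM in healthy libraries at day 25. At day 45 it averaged 23.0 ± 38.7 in SCE, with 1 library at 0, and 11.7 ± 9.77 CPM in healthy libraries. All miRNAs on the lists for red blood cells (8), platelets (8), neutrophils and monocytes (6), lymphocytes (6), liver (4) and striated muscle (4) were present in the files. The summed level of the red blood cell list ran from 28637 to 1794600 in SCE and from 267920 to 2119400 CPM in healthy libraries at day 25, and from 28923 to 656490 in SCE and from 125060 to 1863100 CPM in healthy libraries at day 45. The liver list also had lower means in SCE, at 28781 ± 22692 in SCE (8794 to 90093) and 57065 ± 33185 CPM in healthy libraries (9760 to 82020) at day 25, and 31018 ± 25184 in SCE (11971 to 103650) and 58580 ± 34087 CPM in healthy libraries (25395 to 108720) at day 45. Little of this sum was miR-122, whose mean was the higher one in SCE at day 45. The platelet list averaged 10797 ± 2270 in SCE and 14700 ± 7964 CPM in healthy libraries at day 25, and 11475 ± 3230 in SCE and 14452 ± 3115 CPM in healthy libraries at day 45. For the neutrophil and monocyte list the means were 26401 ± 6215 in SCE and 21695 ± 13646 CPM in healthy libraries at day 25. At day 45 they were close, at 25898 ± 4510 in SCE and 25824 ± 8445 CPM in healthy libraries. The lymphocyte list holds miR-150, miR-342, miR-181a and miR-181b with miR-155 and miR-146a. Its sum averaged 9894 ± 5423 in SCE and 10128 ± 3881 CPM in healthy libraries at day 25. At day 45 that sum was 10757 ± 5502 in SCE and 8254 ± 3188 CPM in healthy libraries, with overlapping ranges. Values with a red blood cell ratio as a covariate are given beside the members, and the part of liver and platelet RNA was not tested.

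The 6 miRNAs spanned a wide range of abundance. By mean CPM over the 33 libraries, miR-181a stood at rank 22 of all names (6436 CPM), miR-150 at 41 (1864), miR-342 at 66 (752), miR-181b at 70 (635), miR-181c at 112 (142) and miR-181d at 172 (24.7). Mature miRNAs are of similar length, but ligation favours some ends, so levels of different miRNAs are a rough guide only. Neighbours in this order overlapped: miR-342 and miR-181b averaged 747 ± 382 and 680 ± 356 CPM in SCE libraries at day 25. The 6 names together held 1.38% ± 0.93 of counts in SCE and 0.750% ± 0.486 in healthy libraries at day 25, and 1.28% ± 0.70 in SCE and 0.664% ± 0.546 in healthy libraries at day 45. These are shares of unscaled counts, of which miR-486 held more in healthy libraries. After TMM, the 4 miR-181 names summed to 7000 ± 3183 in SCE and 8290 ± 3430 CPM in healthy libraries at day 25. At day 45 the sums were 7028 ± 2959 in SCE and 7183 ± 3262 CPM in healthy libraries.

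**Figure D1:**
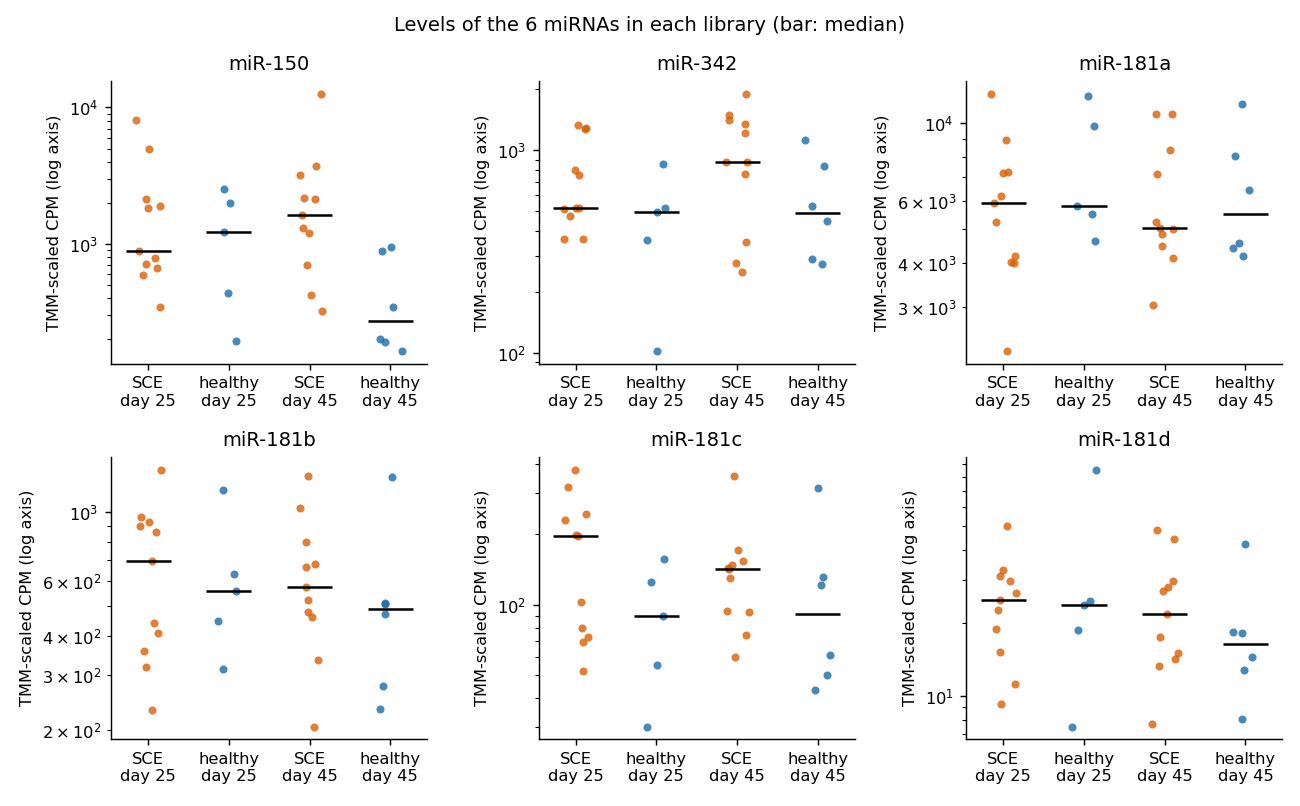
TMM-scaled CPM (log axis) of the 6 miRNAs in each library, by status and day; each point is a library and the bar is the median. miR-150 at day 45 had a median of 1618 CPM in 11 SCE and 273 CPM in 6 healthy libraries, while the SCE and healthy ranges of miR-181a overlapped at both days.

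miR-150 was the member with the widest spread and the largest difference between SCE and healthy cows, at the later sampling. In SCE libraries at day 45 it ran from 323 to 12572 CPM with a median of 1618, against a range from 164 to 949 with a median of 273 in healthy libraries. Of 11 SCE libraries, 8 lay above every healthy one, and 3 of 6 healthy libraries lay below every SCE one; SCE cows 8, 14 and 17, at 703, 323 and 421 CPM, were within the healthy range. The means were 2674 ± 3456 CPM in SCE and 456 ± 364 CPM in healthy cows (SD, n = 11 and 6). edgeR's quasi-likelihood test gave a log2 fold change of 2.60 (SE 0.70, 95% interval 1.17 to 4.03), with p = 0.000889 and an adjusted p of 0.277 by Benjamini-Hochberg over the 382 miRNAs tested. No other miRNA tested at day 45 had a smaller p in that fit, yet at the adjusted threshold of 0.05 edgeR called 0 of 382 (0%), with 39 at an unadjusted p under 0.05.

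Whether miR-150 at day 45 passed the threshold depended on the method. DESeq2, the tool named in the design text, gave a log2 fold change of 2.53 with an adjusted p of 0.0424, and miR-150 was the 1 miRNA it called of 748 (0.134%). That DESeq2 call was lost when healthy cow 1, 3 or 5, or SCE cow 7, 11, 15 or 16, was left out, with adjusted p from 0.00725 to 0.237 over all 17 omissions. With the log2 ratio miR-451/miR-23a entered as a term, edgeR gave 2.82 and an adjusted p of 0.0186, again the 1 call of 382 (0.262%), lost without healthy cow 3, 4 or 5 or SCE cow 15. With miR-486/miR-23a in its place the log2 fold change was 3.13 and the adjusted p 0.106, but these terms did not move every comparison the same way. At day 25 the log2 fold change of miR-150 was 0.66 with miR-451/miR-23a and 0.20 with miR-486/miR-23a, against 0.74 without a term. In the sums per cow it was 2.05 (p = 0.00649, adjusted p = 0.277) and 1.24 (p = 0.1004, adjusted p = 0.989), against 1.66 without a term. Scaling by library totals alone gave 3.39 with an adjusted p of 0.0224, also 1 call of 382 (0.262%), but moved the median of all miRNAs to 0.71, against 0.11 under TMM. Over all settings and omissions run, those under DESeq2 and the covariate included, the adjusted p of miR-150 at day 45 ran from 0.00366 to 0.461 and its log2 fold change from 1.85 to 3.39. The lowest values with a cow left out were those without SCE cow 15, which carried the highest miR-150 level: 1.92 by edgeR and 1.85 by DESeq2. An exact two-sided permutation test of its log2 CPM over cows gave a difference of 2.19 and p = 0.00646; this is 1 of 18 such tests over 6 members and 3 status comparisons, with no adjustment.

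**Figure D2:**
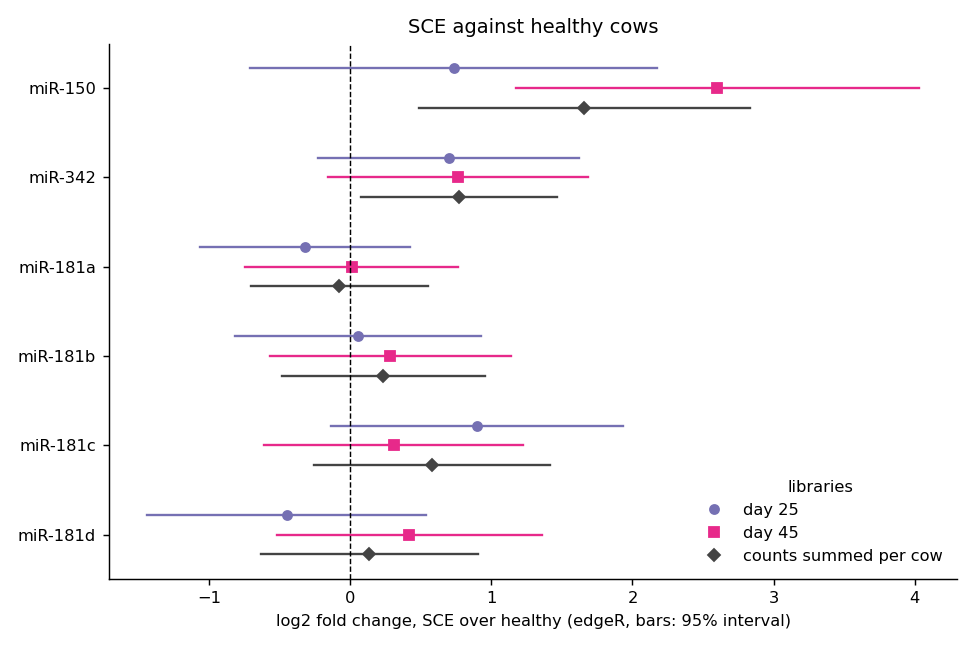
Log2 fold changes of the 6 miRNAs, SCE over healthy, from edgeR with 95% intervals, at day 25, at day 45 and for counts summed over both days of a cow. The intervals of miR-150 at day 45 (1.17 to 4.03) and in the sums (0.49 to 2.83) and of miR-342 in the sums (0.07 to 1.47) lay above 0, and no adjusted p was under 0.05.

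At the earlier sampling the miR-150 levels of the groups overlapped. SCE libraries ran from 346 to 8115 CPM with a median of 883. Healthy libraries held 195, 438, 1214, 2004 and 2526 CPM, and their median was the higher one. Means were 2088 ± 2391 CPM in SCE and 1276 ± 996 CPM in healthy cows (SD, n = 11 and 5), and 2 SCE libraries, of cows 15 and 16, lay above every healthy one. The log2 fold change was 0.74 (SE 0.69, 95% interval −0.71 to 2.18, edgeR adjusted p = 0.542). edgeR called 1 of 372 miRNAs at day 25 (0.269%) and DESeq2 14 of 522 (2.68%), none of them a member; the edgeR call was a miRNA outside these lists. With the counts of both days summed per cow, miR-150 averaged 2182 ± 2040 CPM in SCE and 770 ± 443 CPM in healthy cows (SD, n = 11 and 6), a log2 fold change of 1.66 (SE 0.57, p = 0.00741, edgeR adjusted p = 0.191, DESeq2 adjusted p = 0.0522). In these sums edgeR called 1 of 418 miRNAs (0.239%) and DESeq2 15 of 286 (5.24%), again no member, and 5 of 11 SCE cows exceeded all healthy cows (exact permutation p = 0.0425). By library totals alone, 64 of 418 miRNAs were called in the sums (15.3%), all higher in SCE, and miR-150 (2.49) and miR-342 (1.60) were among them with an adjusted p of 0.0168 each; the median of all miRNAs was then 0.77.

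The highest miR-150 levels came from SCE cows 15 and 16. Cow 15 had 4993 CPM at day 25 and 12572 CPM at day 45, and cow 16 had 8115 CPM at day 25 and 2149 CPM at day 45. The red blood cell ratio miR-451/miR-23a was 0.74 and 4.49 in the libraries of cow 15 and −0.08 and 1.97 in those of cow 16, at day 25 and day 45 in turn.

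Within cows, miR-150 moved in both directions between the samplings. It was higher at day 45 in 7 of 11 SCE cows and in 1 of 5 healthy cows with both libraries. Healthy cow 1 had 2004 CPM at day 25 and 192 at day 45, healthy cow 5 had 2526 and 202, healthy cow 2 had 1214 and 887, and healthy cow 6 had 438 and 344, while healthy cow 4 had 195 and 949. The edgeR log2 fold change of day 45 over day 25 was 0.22 (SE 0.55, adjusted p = 0.932) in SCE and −1.40 (SE 0.65, p = 0.0428, adjusted p = 0.9999) in healthy cows. With the cow as a block in a paired fit the values were 0.16 in SCE and −1.23 in healthy cows, with p = 0.102 in healthy cows. The exact sign-flip tests within cows gave p = 0.536 in SCE and p = 0.3125 in healthy cows, where the smallest p that 5 cows allow is 0.0625. The day effect in SCE minus that in healthy cows was 1.77 (SE 0.96, 95% interval −0.18 to 3.71, p = 0.0738, edgeR adjusted p = 0.988) in a fit without pairing of cows. With the cow as a block it was 1.48 (SE 0.88, edgeR p = 0.104, adjusted p = 0.977). A difference between the statuses in how miR-150 changed was thus not shown. edgeR called 0 of 346 miRNAs between days in SCE (0%; 14 at p under 0.05, DESeq2 0 of 773), 0 of 345 in healthy cows (0%; 10, DESeq2 0 of 695) and 0 of 406 for the difference (0%; 7, DESeq2 0 of 791).

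**Figure D3:**
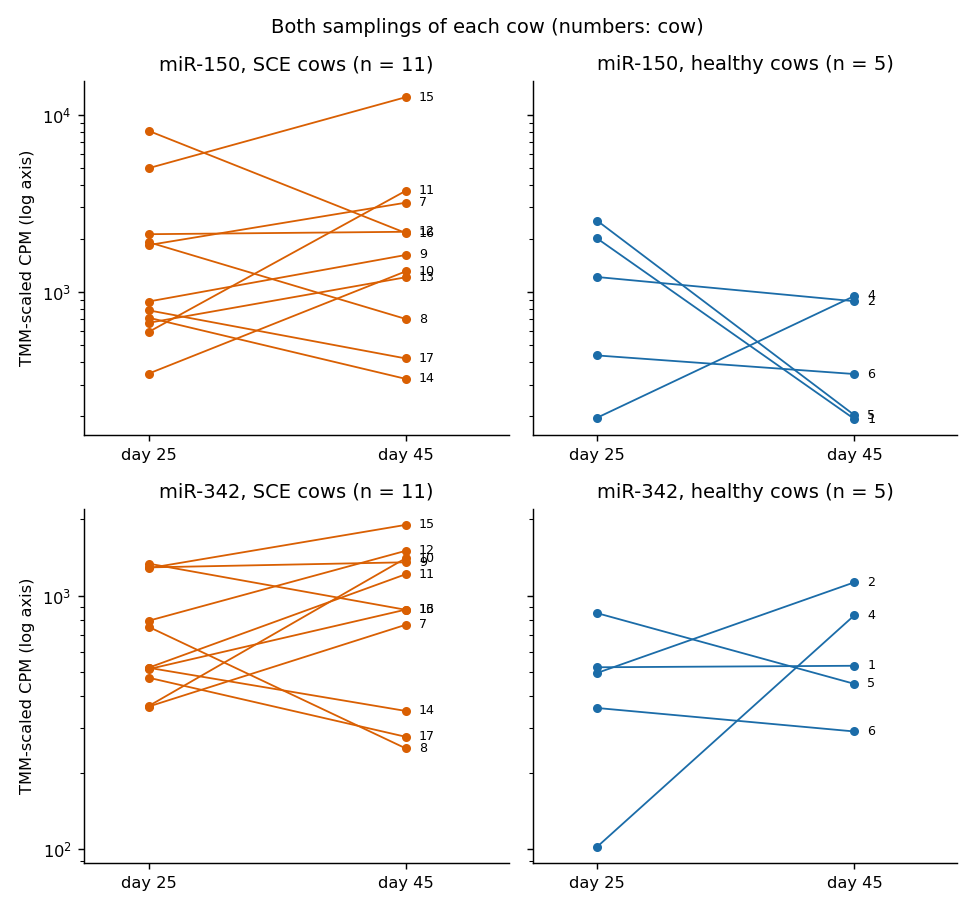
miR-150 (top) and miR-342 (bottom) in TMM-scaled CPM (log axis) at day 25 and day 45, 1 line per cow, with SCE cows at left and healthy cows at right; numbers are cows. Lines of miR-150 go down in 4 of 5 healthy cows and up in 7 of 11 SCE cows.

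miR-342 had higher means in SCE than in healthy cows at both samplings, with overlapping groups and no adjusted p under 0.05. At day 25 it ran from 365 to 1337 CPM with a median of 519 in SCE libraries, against 102, 360, 495, 521 and 852 CPM in healthy ones. Means were 747 ± 382 CPM in SCE and 466.0 ± 272 CPM in healthy cows, a log2 fold change of 0.70 (SE 0.45, edgeR adjusted p = 0.374). Day 45 gave 249 to 1901 CPM with a median of 880 in SCE and 273 to 1128 CPM with a median of 488 in healthy libraries. The log2 fold change there was 0.77 (SE 0.45, adjusted p = 0.590), with 5 of 11 SCE libraries above every healthy one and 1, of cow 8, below. Summed per cow, miR-342 averaged 803 ± 319 CPM in SCE and 520 ± 190 CPM in healthy cows (SD, n = 11 and 6; log2 fold change 0.77, SE 0.34, p = 0.0315, adjusted p = 0.262). Under every alternative setting its log2 fold change was positive in these 3 comparisons. It ran from 1.60 to 1.69 by library totals alone, which moved the median of all miRNAs to between 0.71 and 0.88, and from 0.44 to 1.11 otherwise. With the miR-451 and miR-486 covariates it was 0.78 and 0.44 at day 25, 1.03 and 1.11 at day 45, and 0.92 and 0.51 in the sums. Between the days it was 0.31 (SE 0.33) in SCE and 0.43 (SE 0.54) in healthy cows, and 0.18 and 0.45 with the cow as a block.

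The ratio of miR-150 to miR-342 within a library does not depend on the scaling between libraries, and its mean was lowest in the healthy day-45 libraries. Its log2 value was 0.98 ± 1.02 in SCE and 1.20 ± 0.63 in healthy libraries at day 25, and 0.98 ± 0.92 in SCE and −0.55 ± 0.70 in healthy libraries at day 45 (SD; n = 11, 5, 11 and 6). At day 45, 9 of 11 SCE libraries were above the highest healthy one, and 4 of 6 healthy libraries were below the lowest SCE one. With cow 3 counted at day 45, which its files leave uncertain, healthy libraries of the 2 days did not overlap. The lowest at day 25 was 0.28 and the highest at day 45 was 0.24. SCE libraries reached down to −0.55 at day 25 and −0.12 at day 45, within the healthy day-45 range. Within cows the ratio was lower at day 45 in 5 of 5 healthy cows but in 6 of 11 SCE cows. The change was −1.71 ± 1.38 in healthy cows, from −3.41 to −0.04, so that it was near 0 in at least 1 cow. In SCE cows it was 0.003 ± 0.79, from −1.31 to 1.42. It is given as a description, with no test. The ratio of miR-150 to miR-181a was −2.08 ± 1.18 in SCE and −3.00 ± 1.74 in healthy libraries at day 25, and −1.85 ± 1.354 in SCE and −4.11 ± 1.12 in healthy libraries at day 45, when 8 of 11 SCE libraries lay above every healthy one. For miR-342 over miR-181a the values were −3.07 ± 0.80 in SCE and −4.21 ± 1.37 in healthy libraries at day 25, and −2.84 ± 1.21 in SCE and −3.57 ± 1.09 in healthy libraries at day 45.

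**Figure D4:**
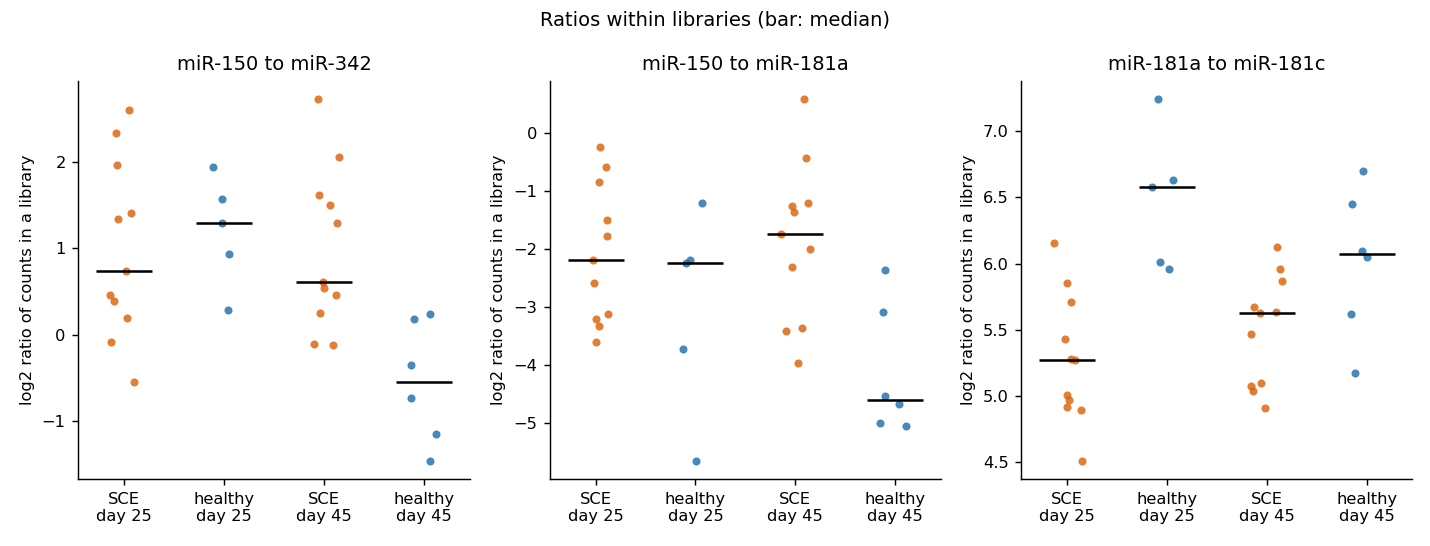
Log2 ratios of counts within each library (a count of 1 added to both) for miR-150 to miR-342, miR-150 to miR-181a and miR-181a to miR-181c; points are libraries and bars are medians. For miR-150 to miR-342 the healthy day-45 libraries have the lowest median, with a range from −1.46 to 0.24. For miR-181a to miR-181c the SCE day-25 libraries have the lowest median, with a range from 4.50 to 6.15. Both ranges overlap those of other groups.

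The most abundant member, miR-181a, differed little between the statuses. SCE libraries at day 25 ran from 2244 to 12105 CPM with a median of 5914, against 4607, 5518, 5792, 9833 and 11954 CPM in healthy ones. Of the 11 SCE libraries at day 25, 4 lay below every healthy one and 1 above. At day 45 the levels ran from 3024 to 10638 CPM with a median of 5034 in SCE and from 4189 to 11322 CPM with a median of 5492 in healthy libraries. There 2 SCE libraries lay below every healthy one, and 1 healthy library lay above every SCE one. The log2 fold change was −0.32 (95% interval −1.06 to 0.43, edgeR adjusted p = 0.632) at day 25 and 0.01 (−0.75 to 0.76, adjusted p = 0.996) at day 45, and −0.08 (−0.70 to 0.55) in the sums. Its sign is not firm, since library totals alone turned the day-25 value to 0.59 and the value for the sums to 0.59. With miR-486/miR-23a as a covariate the day-25 value was −0.82 (p = 0.0210, adjusted p = 0.344). miR-181b, which is encoded beside it, averaged 680 ± 356 CPM in SCE and 626 ± 332 CPM in healthy cows at day 25, and 642 ± 314 CPM in SCE and 549 ± 384 CPM in healthy cows at day 45. Its log2 fold changes were 0.05 (SE 0.42, adjusted p = 0.946) and 0.29 (SE 0.42, adjusted p = 0.850). Without healthy cow 6, the highest healthy library, the day-45 value was 0.73 (edgeR p = 0.0879). Without SCE cow 16, the highest SCE library, it was 0.13.

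Of the scarcer miR-181 members, miR-181c had the larger difference, at day 25. It ran from 52.1 to 378 CPM with a median of 196 in SCE libraries and was 30.3, 55.5, 89.7, 125 and 158 CPM in healthy ones, so that 6 of 11 SCE libraries lay above every healthy one. Means were 177 ± 110 CPM in SCE and 91.6 ± 51.3 CPM in healthy cows, with a log2 fold change of 0.90 (SE 0.50, 95% interval −0.14 to 1.94, edgeR adjusted p = 0.296; exact permutation p = 0.124). With miR-486/miR-23a as a covariate that value was −0.20. At day 45 the means were 142 ± 78.5 CPM in SCE and 120 ± 102 CPM in healthy cows (log2 fold change 0.31, SE 0.45, edgeR adjusted p = 0.850). Without healthy cow 6, which had 315 CPM, the log2 fold change was 0.86 (edgeR p = 0.0590, adjusted p = 0.314). Without SCE cow 16, which had 353 CPM, the log2 fold change was 0.08. miR-181d averaged 24.8 ± 11.5 CPM in SCE and 32.0 ± 30.6 CPM in healthy cows at day 25, where healthy cow 4 alone had 85.5 CPM, and 24.3 ± 12.9 CPM in SCE and 19.1 ± 12.02 CPM in healthy cows at day 45. Its log2 fold change was −0.45 (SE 0.48, edgeR adjusted p = 0.608) at day 25, 0.39 without healthy cow 4 and −0.74 without healthy cow 1. At day 45 it was 0.42 (SE 0.46, edgeR adjusted p = 0.770). With 1 cow left out it ran from 0.39 to 0.81, the latter without healthy cow 6 (edgeR p = 0.0955). The lowest count of any member was 6, for miR-181d in the day-45 library of SCE cow 10.

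The make-up of the miR-181 counts was stable in outline. miR-181a made up 89.1% ± 2.7 of the counts of the 4 names, miR-181b 8.62% ± 2.05, miR-181c 1.90% ± 0.73 and miR-181d 0.345% ± 0.160 (SD over 33 libraries). The share of miR-181c was 2.37% ± 0.71 in SCE and 1.06% ± 0.33 in healthy libraries at day 25, and 2.02% ± 0.54 in SCE and 1.49% ± 0.57 in healthy libraries at day 45. As a log2 ratio, miR-181a to miR-181c was 5.27 ± 0.49 in SCE and 6.49 ± 0.53 in healthy libraries at day 25, with 10 of 11 SCE libraries below every healthy one, and 5.50 ± 0.41 in SCE and 6.01 ± 0.56 in healthy libraries at day 45, with 4 of 11 below. miR-181a to miR-181b was 3.24 ± 0.28 in SCE and 3.64 ± 0.55 in healthy libraries at day 25, and 3.33 ± 0.33 in SCE and 3.70 ± 0.50 in healthy libraries at day 45. These ratios were not tested, and they inherit the open assignment of reads among the 4 names.

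Between the days, no miR-181 member passed the test. In SCE cows the log2 fold changes of day 45 over day 25 were −0.07 for miR-181a, −0.18 for miR-181b, −0.38 for miR-181c and −0.11 for miR-181d, with SE from 0.30 to 0.37. In healthy cows they were −0.23, −0.27, 0.33 and −0.85 in the same order, with SE from 0.44 to 0.61. The paired values with the cow as a block were −0.05, −0.14, −0.26 and −0.19 in SCE and −0.22, −0.41, 0.27 and −0.54 in healthy cows. No adjusted p was under 0.05 in either fit.

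Taking the members as a list, 4 of 6 had a positive log2 fold change at day 25 (median 0.38, against −0.05 over all 372 tested), 6 of 6 at day 45 (0.36, against 0.11 over 382) and 5 of 6 in the sums (0.41, against 0.04 over 418), while miR-181a at day 45 lay at 0.01 and turned negative under DESeq2 size factors and upper-quartile scaling. Of all miRNAs tested, 47.8% at day 25, 57.1% at day 45 and 53.1% in the sums were higher in SCE. edgeR called none of the members in any of the 6 comparisons, and 0, 1 and 2 of them had an unadjusted p under 0.05 at day 25, at day 45 and in the sums, against 75 of 372 (20.2%), 39 of 382 (10.2%) and 69 of 418 (16.5%) of all miRNAs tested. DESeq2 called miR-150 at day 45 alone among the members.

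Over the 17 cows, the levels of members correlated more within 2 sets, miR-150 with miR-342 and the miR-181 names, than between these sets. miR-150 and miR-342 had a Pearson r of 0.81 for log2 CPM of cow sums (Spearman's rho 0.80, r = 0.71 without the 2 cows farthest from the median, r = 0.71 within the 11 SCE cows). Within the miR-181 names r lay between 0.65, for miR-181a with miR-181d, and 0.90, for miR-181b with miR-181c. Across the sets r was lower, at 0.31 for miR-150 with miR-181a and −0.06 for miR-342 with miR-181a, although miR-150 with miR-181a reached 0.63 within SCE cows. These are descriptions over cows that share a sequencing scale, with no p. Outside the list, the miRNAs most like miR-150 of 412 compared were miR-505 (0.75), miR-425-5p (0.71) and miR-3432a (0.69), and those most like miR-342 were miR-138 (0.70), miR-664b (0.69) and miR-505 (0.65). For miR-181a they were miR-769 (0.85), miR-2285ca (0.74) and miR-744 (0.73), and for miR-181b let-7d (0.92), miR-30d (0.90) and miR-130b (0.88). miR-181c was most like miR-30c (0.93), miR-6119-5p (0.93) and miR-30e-5p (0.91), and miR-181d was most like miR-155 (0.88), miR-26b (0.87) and let-7d (0.83). By r over all 17 cows none of these matched miR-150 as closely as miR-342 did, while within the 11 SCE cows miR-425-5p had an r of 0.76 with miR-150, above the 0.71 of miR-342. Each miR-181 name had an outside miRNA at least as close as its closest family member. For miR-181a that family r was 0.85, for miR-181b and miR-181c 0.90, and for miR-181d 0.83. The r among the miR-181 names is thus not particular to the family.

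**Figure D5:**
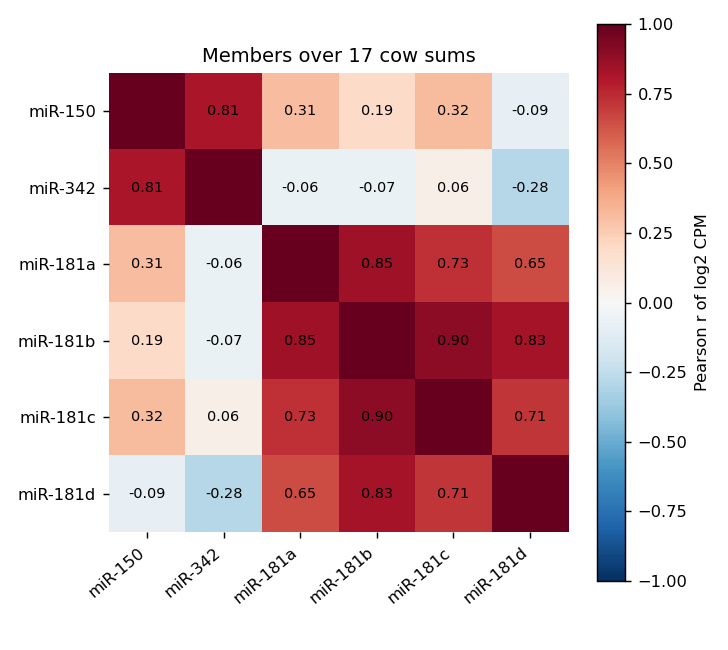
Pearson r of log2 TMM-scaled CPM between the 6 miRNAs over the 17 cows, with both days of a cow summed. miR-150 pairs with miR-342 at 0.81, the 4 miR-181 names with each other at 0.65 to 0.90, and values between those sets lie between −0.28 and 0.32.

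A list of 12 other miRNAs known from other species to be made in lymphocytes, most of them in other cells too, was set beside the members. All 12 were tested, and edgeR called 0 of them in each comparison; 4 had an unadjusted p under 0.05 at day 25, 4 at day 45 and 5 in the sums, beside the 20.2%, 10.2% and 16.5% of all miRNAs given above. Their log2 fold changes were positive for 8 of 12 at day 25 (median 0.77), 9 of 12 at day 45 (0.55) and 9 of 12 in the sums (0.69). miR-30b-5p, a miR-30 family member made in many tissues, averaged 2336 ± 2109 CPM in SCE and 318 ± 242 CPM in healthy cows at day 25 (log2 fold change 2.88, SE 0.78, edgeR adjusted p = 0.0787), and 1265 ± 1234 CPM in SCE and 454 ± 448 CPM in healthy cows at day 45 (1.53, SE 0.59, adjusted p = 0.460). miR-29c, of a family that lowers collagen messages, averaged 406 ± 192 CPM in SCE and 154 ± 119 CPM in healthy cows at day 25 (1.38, SE 0.52, adjusted p = 0.185), and 352 ± 162 CPM in SCE and 189 ± 51.0 CPM in healthy cows at day 45 (0.94, SE 0.38, adjusted p = 0.460). Both had their larger difference at day 25, where miR-150 had the smaller of its values.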

How the data were processed

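Each deposited file holds whole-number read counts per mature bovine miRNA, not normalized. The submitters' processing notes name bcl2fastq 2.17.1.14, the genome build UMD 3.1 and DESeq2; for the aligner, counter and miRNA annotation they name nothing. Per the labels' protocols, TruSeq small RNA libraries were amplified by PCR with no molecular identifiers named, so counts are of reads after PCR. Library totals ran from 678389 to 28872153 in 33 of 34 libraries; depth limits miR-181d most.

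Here, edgeR 4.0.16 (with limma 3.58.1, R 4.3.3) ran its quasi-likelihood test on TMM-scaled counts after filterByExpr, with only the groups compared in each fit and Benjamini-Hochberg adjustment over all miRNAs tested (threshold 0.05). DESeq2 1.42.0 was an alternative. Log2 CPM used a prior count of 2, and ratios a pseudocount of 1. Exact two-sided tests permuted cows or flipped days. The procedure was tested on counts simulated independently for each library. These had no pairing of cows and no differences in red blood cell RNA, so the test does not bear on scaling or covariates. Members and lists were chosen with earlier results of these data known. All members are named, with the 3 miRNAs most correlated with each, the 2 other lymphocyte miRNAs of lowest p per status comparison, and defining markers. Cow numbers pair the libraries, since both come from the same animal: deviations from group means had a median correlation of 0.251 within 16 cows (over 0.1 in 11) and −0.0382 between other cows. Alternatives were other scalings, filters, tests, covariates, a cow block and each cow left out; scaling by totals, omissions under DESeq2 or the covariate, and the ratio of miR-181c to miR-181d were chosen after seeing the data.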

Additional observations from a re-analysis of the deposited data

Results flagged for a closer look

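A single library was set against the others of its group in the healthy groups alone, where 4 of 12 sets of CPM values held a library far from the rest. The SCE groups were not checked in this way. They also held high libraries, such as miR-150 in SCE cow 15 at day 45 (12572 CPM, next highest 3727). A chance rate of about 1 in 20 would assume normally distributed values, which skewed CPM need not follow. The same check was not made on log2 CPM, so no conclusion is drawn from the number of flags. At day 45, healthy cow 6 was the high library for miR-181b (1293 CPM, next highest 509), for miR-181c (315 CPM, next highest 132) and for miR-181d (42.3 CPM, next highest 18.4). These are not independent, since the miR-181 names vary together over cows. At day 25, healthy cow 4 was the high library for miR-181d, with 85.5 CPM against 24.6 in the next highest.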

How the results depend on the processing

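Values are log2 fold changes of members and counts of miRNAs called by edgeR; the covariates are the ratios miR-451/miR-23a and miR-486/miR-23a. Of 396 member values under another setting, 337 kept their sign and side of the threshold, 5 passed it where edgeR with TMM had not, 2 had an exact p above an unadjusted threshold that edgeR's p had passed, and 52 changed sign; with a cow left out, 467 of 504 kept both and 37 changed sign. miR-150 kept a positive sign in all status comparisons. The causes of changes were not tested. No paired value changed a call; with the cow as a replicate block, miR-342 turned to −0.20 for the difference of the day effect. Depth limits miR-181d, with counts down to 6.

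SCE over healthy at day 25 had 4 miRNAs called with DESeq2 size factors, 14 with the DESeq2 test, 2 with the miR-451 covariate, 2 in a fit over all 33 libraries, 48 by library totals, 4 with miR-486 left out, 6 with no filter, and 0 to 7 without a cow, against 1. miR-181b was −0.0499 under DESeq2 size factors and test (−0.0487), −0.22 and −0.72 with the miR-451 and miR-486 covariates, −0.125 with the stricter filter, −0.0201 by upper quartile, and −0.11 to 0.47 without a cow. miR-181c was −0.20 with the miR-486 covariate. By library totals, which moved the median of all miRNAs to 0.88, miR-181a was 0.59 and miR-181d 0.47. Without a cow miR-181d was −0.74 to 0.39.

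At day 45, the count of miRNAs called and of members called was 1 each by the DESeq2 test, the miR-451 covariate and library totals, against 0, and members called were 0 to 1 when a cow was left out of the DESeq2 or covariate fit; DESeq2 then called 0 to 24 miRNAs in all, with 24 without healthy cow 6. miR-181a, at 0.01, was −0.00191 under DESeq2 size factors, −0.00189 by DESeq2, −0.0879 with the miR-486 covariate, −0.0688 by permutation, −0.0474 over all libraries, −0.0342 with miR-486 left out and with no filter (−0.0311), −0.0615 with the stricter filter, −0.0973 by upper quartile, and −0.0941 to 0.23 without a cow. miR-181c was −0.0278 with the miR-486 covariate.

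In the sums per cow, 15 were called by DESeq2, 0 with either covariate, 64 by library totals (members 2), 2 with miR-486 left out, with no filter and with the stricter filter, and 0 to 10 without a cow, against 1. miR-181b and miR-181d were −0.0309 and −0.0735 with the miR-451 covariate, and −0.24 and −0.0781 with the miR-486 covariate, where miR-181c was −0.18. miR-181a was 0.59 by library totals and −0.19 to 0.0668 without a cow.

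For day 45 over day 25 in SCE, miR-181a was 0.0991 with DESeq2 size factors, 0.0946 by DESeq2, 0.0135 and 0.0762 with the miR-451 and miR-486 covariates, 0.0485 by sign flips, 0.0184 over all libraries, 0.0666 with miR-486 left out, 0.11 with the stricter filter, 0.0321 by upper quartile, and −0.16 to 0.0780 without a cow. miR-181b was 0.000723 with DESeq2 size factors, 0.12 with the miR-486 covariate and 0.00727 with the stricter filter. miR-181c was 0.0955 with the miR-486 covariate. miR-181d was 0.0751 with DESeq2 size factors, 0.0742 by DESeq2, 0.0422 with the miR-486 covariate and with miR-486 left out (0.0377), 0.0793 with the stricter filter, and −0.34 to 0.0280 without a cow. miR-150 was −0.0530 with the miR-451 covariate and −0.18 to 0.97 without a cow. In healthy cows, miR-181b was 0.0632 by library totals and −0.76 to 0.24 without a cow, miR-181c −0.27 to 0.76 and miR-181d −1.36 to 0.18. For the difference of the day effect, 1 miRNA was called with no filter, against 0. miR-342, at 0.00, was −0.135 with the miR-451 covariate, −0.00646 with the miR-486 covariate, −0.0312 with miR-486 left out, and −0.32 to 0.34 without a cow. miR-181c was 0.0540 with the miR-486 covariate, miR-181a −0.0993 and miR-181b −0.397 by library totals, miR-181b −0.25 to 0.62 and miR-181d −0.12 to 1.29 without a cow.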

Other observations

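The ratio of miR-181c to miR-181d, which are encoded side by side, was looked at after the data had been seen. Its log2 value was 2.69 ± 0.60 in SCE and 1.74 ± 0.72 in healthy libraries at day 25, and 2.56 ± 0.57 in SCE and 2.48 ± 0.68 in healthy libraries at day 45 (SD; n = 11, 5, 11 and 6). It was higher at day 45 in 5 of 11 SCE cows and in 5 of 5 healthy cows with both days, with a mean change of −0.12 ± 0.64 in SCE and 0.90 ± 0.88 in healthy cows. The log2 ratio of miR-181b to miR-181d was 4.72 ± 0.38 in SCE and 4.59 ± 0.61 in healthy libraries at day 25, and 4.73 ± 0.54 in SCE and 4.796 ± 0.35 in healthy libraries at day 45.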
